A study of Mus musculus with 6 samples.

Results

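The genes described here are 10 genes of protein folding and stress signalling in the endoplasmic reticulum (ER): Hspa5, Hsp90b1, Canx, Pdia4, Pdia6, Dnajb9, Atf6, Xbp1, Atf4 and Ddit3. They were chosen by name, through the gene name that the scanner files give each probe, and all 10 were found, with 19 probes among the 41174 probes of the array. RNA had been taken from whole testes of 3 Prss37 knockout mice (Prss37-/-) and of 3 wild-type mice, all male, on C57BL/6 and 6 to 8 weeks old, and each testis RNA had been labelled with Cy3 and hybridised to a single-colour Agilent array. The study asked which testis transcripts differ when Prss37, a gene of the serine protease family, is missing. The labels give neither the deleted part of Prss37 nor whether the wild-type mice were littermates, and their description field names Prss55 for the knockout samples, where title and source name Prss37. A whole testis mixes germ cells with somatic cells, so fewer cells of a type and less RNA per cell cannot be told apart in any value below.

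The ER lumen folds secreted and membrane proteins with chaperones of the HSP70 and HSP90 classes, lectin chaperones that hold glycoproteins, and disulfide isomerases. When unfolded proteins build up, the sensors IRE1, PERK and ATF6 start the unfolded protein response, which raises chaperone genes through ATF6 and spliced XBP1 and, through PERK, favours translation of ATF4 and then transcription of Ddit3 (CHOP). In the testis, spermatids build the acrosome and the sperm surface from proteins folded in the ER, with help from testis-specific relatives of these chaperones such as Calr3 and Clgn. Much of this response acts on splicing, translation and proteolysis, so transcript levels show a part of it.

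Chaperone genes of this pathway are known to share the ER stress response element (ERSE), in which a CCAAT box and a CCACG sequence stand 9 bases apart. The element was searched on both strands in RefSeq promoter windows of GRCm38.p6, from 250 bases before to 50 bases after the transcript start, of which 9 of the 10 genes had one. It was present in 4 of these 9, against 39 of all 32851 windows (0.119%). The 5 matches are printed because they mark a feature that 4 members hold. The element is known from chaperone genes of this pathway, so its presence in them is not an independent result. Capitals mark the CCAAT and CCACG parts, and lower case marks the spacer.
Hspa5, chr2:34772025-34772043, plus strand: CCAATcggaggcctCCACG
Hsp90b1, chr10:86705533-86705551, plus strand, opposite to the gene: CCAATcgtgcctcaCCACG
Hsp90b1, chr10:86705638-86705656, minus strand: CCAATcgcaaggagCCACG
Canx, chr11:50325800-50325818, minus strand: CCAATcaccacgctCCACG
Pdia6, chr12:17266491-17266509, plus strand: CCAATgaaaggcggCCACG
The match of Hspa5 ended 47 bases before the start and that of Pdia6 80 bases before it. Windows of Pdia4, Ddit3, Xbp1, Dnajb9 and Atf4 held no match to these letters. A match is a stretch of letters and was not tested for binding.

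The 6 arrays had between 69.2% and 71.4% of 43379 spots well above background, 0 saturated spots and between 86 and 159 spots with an outlier flag, and no probe of the 10 genes was flagged. Replicates 1 and 2 of both genotypes lay on slide 1 and replicate 3 of both on slide 2, and each slide was scanned on its own. The single Prss37 probe had a scaled signal of 43.9 ± 1.95 in knockout testes and 71.8 ± 5.11 in wild-type testes (SD, n = 3 each), a log2 difference of -0.71 (limma adjusted p = 0.024). Whether that probe lies in the deleted part is unknown. The labelled tissue had its germ cell markers: the summed scaled signal of 6 spermatid markers lay between 1015 and 1142 in knockout and between 1026 and 1073 in wild-type testes. Among markers of epididymal epithelium, Lcn5, Lcn8, Crisp1, Adam7 and Defb42 were not well above background on any array. Lcn9 was well above background on all 6 at its brightest probe and on none at its other probe. The 6 Sertoli cell markers were all above 0 in their difference, with 0 called. Their summed scaled signal lay between 131 and 133 in knockout and between 121 and 126 in wild-type testes. Amhr2 and Clu gave most of that signal. At the brightest probes the genotypes overlapped for Clu, Cldn11 and Sox9 and did not for Amhr2, Wt1 and Rhox5. The summed scaled signal of 3 peritubular cell markers lay between 7.35 and 8.08 in knockout and between 8.30 and 8.67 in wild-type testes, with 0 called. Most of that sum came from the brightest Acta2 probe, and the genotypes overlapped for the other markers, Des and Myh11. The next brightest Acta2 probe also overlapped, with 5.48, 5.77 and 5.86 in knockout testes and 5.71, 5.53 and 6.45 in wild-type testes. Of 4 Leydig cell markers tested 3 were below 0 and 0 were called, with a median of -0.13 and sums of 31.1 to 35.2 in knockout and 30.5 to 35.6 in wild-type testes. The only called marker of a cell type was the erythroid gene Alas2, with 2.88, 2.85 and 2.96 in knockout testes and 1.83, 2.17 and 2.05 in wild-type testes (difference 0.53, limma adjusted p = 0.039), while Hba-a1, the other erythroid marker, had 2.79, 2.14 and 2.48 in knockout testes and 4.82, 1.80 and 2.89 in wild-type testes. The part of these cells in the values below was not tested.

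None of the 10 genes passed the test between genotypes, and all 10 differed by less than 1.1-fold. Signal is given here as scaled signal, the background-corrected spot signal divided by the 75th percentile of its array, and differences are on the log2 scale, knockout minus wild type. A gene was called at a limma adjusted p under 0.05 over all 18976 genes tested, and 2.46% of these were called (1.21% higher and 1.25% lower). At an unadjusted p under 0.05 the count was also 0 of the 10, where 23.9% of all genes tested passed. Adjusted p ran from 0.24 for Pdia6 to 0.95 for Dnajb9, and a p above the threshold does not show that the levels were equal. The 95% intervals of the 10 differences all included 0 and, read as fold changes, reached from 0.824-fold at the lowest to 1.17-fold at the highest. The differences lay between -0.12 and 0.093 with a median of -0.039, against a median of -0.0024 over all genes tested, and 6 of the 10 were below 0. The median size was 0.059, against 0.091 over all genes tested. Differences under 0.13 in size were common on these arrays, with 12076 of the 18976 genes (63.6%). All 19 probes were well above background on all 6 arrays, so no value of the 10 genes is a bound.

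**Figure D1:**
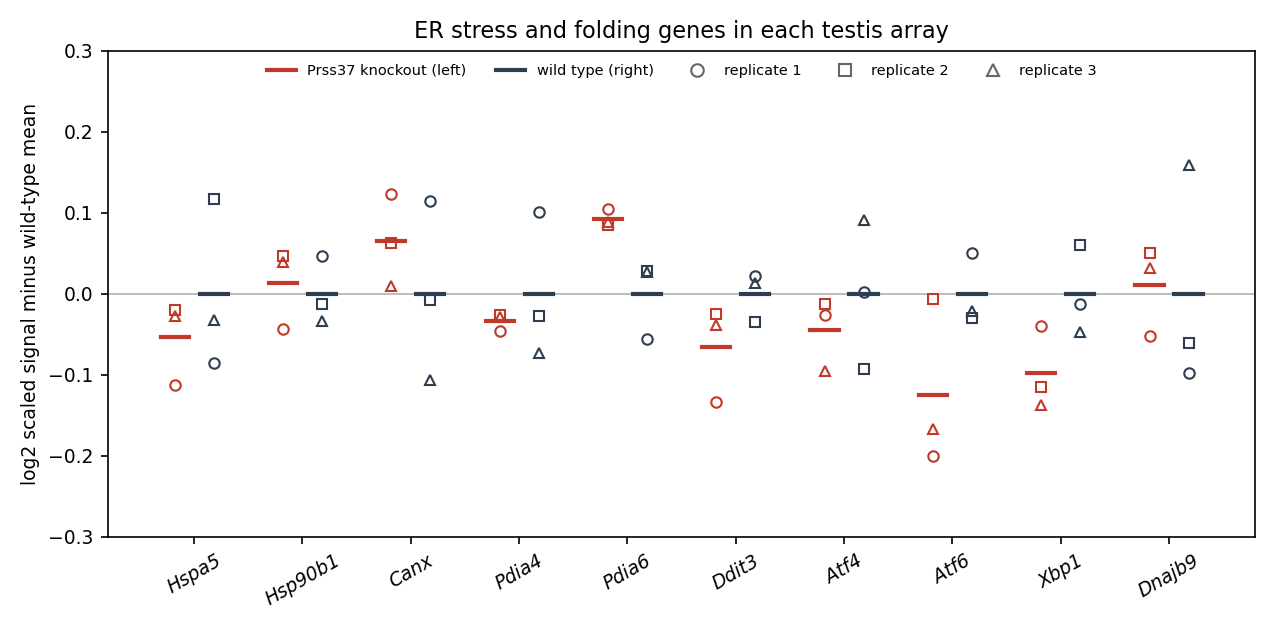
Log2 scaled signal of each of the 10 genes in each array, minus the mean of the wild-type arrays (vertical axis), with knockout arrays to the left and wild-type arrays to the right of each gene. Bars are group means and symbols are replicates. The knockout arrays lie wholly above the wild-type arrays for Pdia6 and overlap them for the other 9 genes.

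The major HSP70 and HSP90 chaperones of the ER differed by less than 1.1-fold between genotypes, and neither passed. Hspa5 encodes BiP, the HSP70 chaperone that binds unfolded chains and holds the stress sensors inactive, and was read by a single probe at chr2:34631630-34631689 (mm9). Its scaled signal was 28.5, 30.4 and 30.2 in knockout testes and 29.0, 33.4 and 30.1 in wild-type testes. The ranges overlap, and wild-type replicate 2 held the highest value. The Hspa5 difference was -0.053 (SE 0.065, adjusted p = 0.67), with a 95% interval from -0.21 to 0.11.

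Hsp90b1 encodes GRP94, the HSP90 chaperone of the ER, and its brightest probe lies at chr10:86153770-86153829 (mm9). It gave 29.2, 31.1 and 30.9 in knockout testes and 31.1, 29.8 and 29.4 in wild-type testes, with overlapping ranges. The Hsp90b1 difference was 0.014 (SE 0.046, adjusted p = 0.89). Its other probe lies nearer the 5′ end of the transcript, at position 884 where the brightest starts at 2515, and gave a different picture. There the scaled signal was 20.3, 20.3 and 20.6 in knockout testes and 21.3, 23.2 and 21.9 in wild-type testes, so that every knockout value lay below every wild-type value. In the fit over all 28306 probes that Hsp90b1 probe had a difference of -0.12 (SE 0.047, unadjusted p = 0.044, adjusted p = 0.21), so it did not pass, as 1.04% of all probes did. It was the only probe of the 19 with an unadjusted p under 0.05, where 22.5% of all probes tested passed that level, and 1 of 2 probes of the 19 with no overlap, where 30.4% of all probes had none.

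The HSP40 co-chaperone gene Dnajb9 (ERdj4), whose product works with BiP, had 8.33, 8.95 and 8.84 in knockout testes and 8.08, 8.29 and 9.65 in wild-type testes at its brightest probe, chr12:45307909-45307968 (mm9). Wild-type replicate 3 was the highest of the 6 arrays and the other wild-type values were the lowest, so the groups overlap. The Dnajb9 difference was 0.010 (SE 0.078, adjusted p = 0.95). It was 0.079 on slide 1 and -0.13 on slide 2. The other Dnajb9 probes, at transcript positions 1256 and 1376, had differences of 0.072 and 0.12 (adjusted p of 0.52 and 0.32).

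Calnexin, the membrane lectin that binds glycoproteins during folding, is encoded by Canx and was read by 3 probes. The brightest, at chr11:50108047-50108106 (mm9), gave 13.2, 12.6 and 12.2 in knockout testes and 13.1, 12.0 and 11.2 in wild-type testes. The groups overlap and the Canx difference was 0.065 (SE 0.068, adjusted p = 0.61). The Canx probes at transcript positions 1882 and 3062 had differences of 0.087 and 0.014 (adjusted p of 0.41 and 0.90). The probe at position 1882 spans 782 bases of the genome for its 60 bases, so it crosses a splice junction.

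Of the disulfide isomerase genes, Pdia6 was the only 1 of the 10 genes whose genotypes did not overlap, where 31.6% of all genes tested did not overlap (15.5% with knockout higher). Its brightest probe, at chr12:17290963-17291022 (mm9), gave 17.5, 17.2 and 17.3 in knockout testes and 15.6, 16.6 and 16.5 in wild-type testes. The mean of Pdia6 was 17.3 ± 0.128 in knockout and 16.2 ± 0.536 in wild-type testes (SD, n = 3 each). The Pdia6 difference was 0.093 (SE 0.042, adjusted p = 0.24), a 1.07-fold higher level that did not pass the test. An exact two-sided permutation test over the 20 splits of the arrays gave p = 0.1, the smallest that 3 against 3 arrays can give.

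Pdia6 had 3 further probes. Those at transcript positions 87 and 1871 of the RefSeq transcript had differences of 0.079 and 0.090 (adjusted p of 0.55 and 0.34), close to the brightest. The last Pdia6 probe was designed to a cDNA other than that transcript, per the file, and had -0.084 (adjusted p = 0.53). It gave 0.119, 0.128 and 0.136 in knockout testes and 0.140, 0.126 and 0.141 in wild-type testes. Pdia4 encodes ERp72, another disulfide isomerase of the ER, and has a single probe at chr6:47746516-47746575 (mm9). It gave 0.165, 0.168 and 0.167 in knockout testes and 0.183, 0.167 and 0.162 in wild-type testes. The knockout values lay inside the wild-type range, and the Pdia4 difference was -0.034 (SE 0.055, adjusted p = 0.76).

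Among the 10 genes, the 4 that encode a transducer or transcription factor (Atf6, Xbp1, Atf4 and Ddit3) each had a difference below 0, and none passed the test. Atf4, Ddit3 and Xbp1 each rest on a single probe, and the sequences of these 3 probes, with that of the Hsp90b1 probe whose groups did not overlap, show what was read. Each is 60 bases, in lower case throughout and with mm9 coordinates.
Hsp90b1, chr10:86161329-86161388, minus strand: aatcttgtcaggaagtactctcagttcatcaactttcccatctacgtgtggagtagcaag
Ddit3, chr10:126732518-126732821, plus strand: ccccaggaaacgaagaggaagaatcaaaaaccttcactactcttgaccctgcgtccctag
Atf4, chr15:80087079-80087138, plus strand: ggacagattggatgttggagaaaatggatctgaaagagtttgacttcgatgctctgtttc
Xbp1, chr11:5424970-5425029, plus strand: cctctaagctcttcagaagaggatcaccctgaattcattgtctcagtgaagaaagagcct
The Ddit3 probe spans 304 bases of the genome and so crosses a splice junction, so unspliced RNA or genomic DNA cannot pair with the whole of it. A single probe cannot give the spliced share of Xbp1.

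Atf6 encodes the ER membrane protein whose cleaved cytosolic part drives chaperone genes. Its brightest probe, at chr1:172638994-172639053 (mm9), gave 0.623, 0.712 and 0.638 in knockout testes and 0.741, 0.701 and 0.706 in wild-type testes. Knockout replicate 2 lay within the wild-type range and the other knockout values below it. The Atf6 difference of -0.12 (SE 0.063, adjusted p = 0.29) was the farthest from 0 among the 10 genes, and its other probe had -0.026 (adjusted p = 0.78).

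Xbp1 encodes the transcription factor that IRE1 activates by splicing. Its scaled signal was 0.380, 0.361 and 0.355 in knockout testes and 0.387, 0.407 and 0.378 in wild-type testes. Only knockout replicate 1 reached the wild-type range, at 0.380 against 0.378 in wild-type replicate 3. The Xbp1 difference was -0.098 (SE 0.049, adjusted p = 0.29), with -0.10 on slide 1 and -0.090 on slide 2.

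Atf4 encodes the factor that is translated when PERK slows general translation, and gave 0.905, 0.914 and 0.862 in knockout testes and 0.923, 0.865 and 0.982 in wild-type testes. The groups overlap, with wild-type replicate 3 highest, and the Atf4 difference was -0.045 (SE 0.059, adjusted p = 0.69). Ddit3 encodes CHOP, a factor linked to cell death under lasting ER stress. It gave 3.53, 3.80 and 3.77 in knockout testes and 3.93, 3.78 and 3.91 in wild-type testes, a difference of -0.066 (SE 0.047, adjusted p = 0.44). Knockout replicate 2 of Ddit3 lay just above wild-type replicate 2, and the other knockout values lay below all wild-type values.

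**Figure D2:**
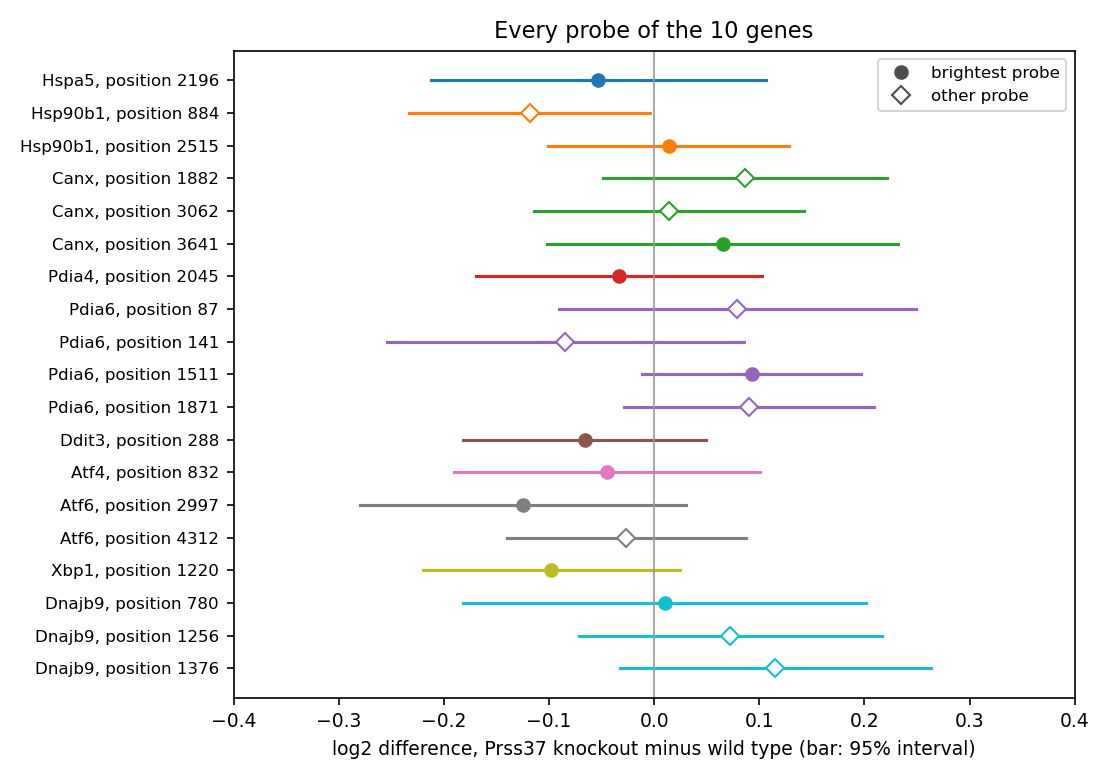
Log2 difference, knockout minus wild type, of each of the 19 probes (points) with its 95% interval (bars), ordered by gene and by the position in the transcript where the probe starts. The interval excludes 0 for 1 probe, that of Hsp90b1 at position 884, and the brightest probe of the same gene lies at 0.014.

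The plot of all 19 probes shows how far probes of the same gene lie apart. Of the 5 genes with several probes, Canx, Atf6 and Dnajb9 had differences of 1 sign across their probes, while Hsp90b1 and Pdia6 had both signs. Levels of different probes are not comparable, since each probe binds with its own strength.

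Within slides the 10 genes had the same sign on both slides in 5 cases and opposite signs in the other 5. Canx and Pdia6 were above 0 on both slides, at 0.039 and 0.12 for Canx and at 0.11 and 0.061 for Pdia6 on slides 1 and 2. Ddit3, Atf6 and Xbp1 were below 0 on both. Atf4 had 0.026 on slide 1 and -0.19 on slide 2. With the slide as a block the count of called genes among the 10 was again 0. Slide 2 holds a single array of each genotype, so its values have no replicate check. On that slide, wild-type replicate 3 held the highest Atf4 and Dnajb9 values, and the adipocyte marker Fabp4 was at 0.216 there, against 0.0553 to 0.0656 in knockout testes and 0.0506 to 0.0728 in the other wild-type testes. Cfd, an adipocyte marker well above background on only 2 arrays and so not tested, was at 0.357 on that array. It was at 0.0041 to 0.028 in knockout testes and 0.0038 to 0.0044 in the other wild-type testes. On an array where Cfd was not well above background, its value is a bound. Adipoq and Plin1 did not follow Fabp4. Adipoq was lowest on that array, at 1.65 against 2.79 to 2.88 in knockout testes and 2.77 to 2.78 in the other wild-type testes. Plin1 was at 0.159 against 0.161 to 0.184 in knockout testes and 0.159 to 0.246 in the other wild-type testes. The part of these cells in the Atf4 and Dnajb9 values was not tested.

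**Figure D3:**
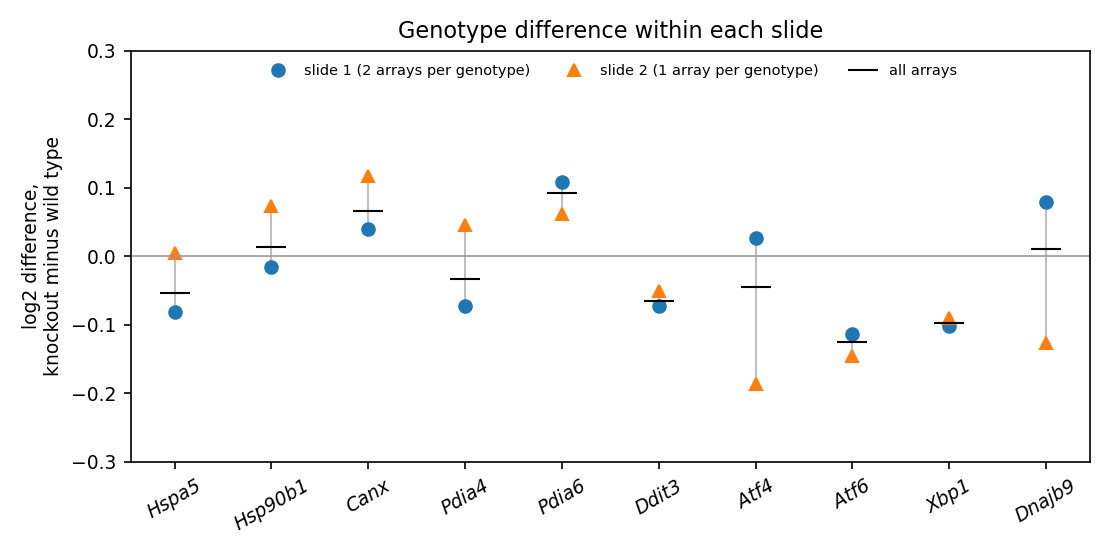
Log2 difference, knockout minus wild type, of the 10 genes on slide 1 (circles, 2 arrays of each genotype), on slide 2 (triangles, 1 array of each genotype) and over all arrays (dashes). The slides differ most for Atf4 and Dnajb9, at 0.026 and 0.079 on slide 1 against -0.19 and -0.13 on slide 2.

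Across arrays, the gene most like Hspa5 among the other 9 members and the pathway genes below (143 genes) was Ero1a, which encodes an oxidase that feeds disulfide bonds to the isomerases. Likeness was the mean absolute difference, over the 6 arrays, between log2 values each centred on the gene's own mean, and was 0.028 for Ero1a. The ubiquitin-conjugating enzyme genes Ube2j2 and Ube2j1, of ER-associated degradation, followed at 0.039 and 0.043. The nearest of the other 9 members was Ddit3 at 0.055, in place 11. Small distances are also given by any gene that varies little, and the 6 arrays are few.

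Beyond the 10 genes, 134 of 138 genes in 7 lists of the ER folding and stress pathways were tested, and 1 was called, where 2.46% of all genes tested were. That gene is Cebpb, a transcription factor gene induced in the stress response and in many other settings, which was lower in knockout testes. Its brightest probe, at chr2:167515847-167515905 (mm9), gave 0.209, 0.189 and 0.194 in knockout testes and 0.344, 0.327 and 0.311 in wild-type testes, with no overlap. The Cebpb difference was -0.73 (SE 0.060, adjusted p = 0.018), a 1.66-fold lower level. A second Cebpb probe at chr2:167515309-167515368 gave 0.0882, 0.0968 and 0.117 in knockout testes and 0.0927, 0.111 and 0.0926 in wild-type testes. It had a difference of 0.023 (SE 0.13, adjusted p = 0.93), so the probes of this gene disagreed. The call was lost with the mean of both probes, where the difference was -0.35 (adjusted p = 0.061). It was also lost, at about the same difference, with no filter on dim probes (-0.73, adjusted p = 0.078), and without knockout replicate 2 (-0.70, adjusted p = 0.12), knockout replicate 3 (-0.72, adjusted p = 0.10) or wild-type replicate 1 (-0.70, adjusted p = 0.084).

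Macrophages also express Cebpb, and their markers had differences above 0 in 5 of 5 genes, with 0 called. Their summed scaled signal lay between 1.90 and 2.20 in knockout and between 1.72 and 1.80 in wild-type testes. The genotypes overlapped for Mrc1, Cd68 and a second Csf1r probe, and did not for Adgre1, Cd163 and the brightest Csf1r probe. Knockout replicate 3 had the highest sum, with Adgre1 at 0.791 against 0.554 and 0.535 in the other knockout testes. Among the other cell types with listed markers, Leydig cells, adipocytes and peritubular cells had median differences below 0, at -0.13, -0.11 and -0.032. The remaining medians lay above 0. The part of any of these cells in the Cebpb value was not tested.

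The list of 21 genes of the PERK branch and the integrated stress response, Cebpb included, had 20 tested genes with a median difference of -0.055. Of these, 0 were called higher and 1 was called lower, where 1.25% of all genes tested were called lower. After Cebpb, the smallest p-values in the list were those of Ppp1r15b and Asns. These and Chac1 were chosen after their values were seen. Ppp1r15b encodes a subunit that directs dephosphorylation of eIF2α, and had 1.37, 1.45 and 1.45 in knockout testes and 1.77, 1.62 and 1.74 in wild-type testes (difference -0.26, adjusted p = 0.061). Asns encodes asparagine synthetase, a target of ATF4, and had 29.6, 31.8 and 31.1 in knockout testes and 36.8, 34.4 and 37.9 in wild-type testes (difference -0.24, adjusted p = 0.074). Of the 20 tested genes of the list, 6 had no overlap with knockout lower and 2 with knockout higher. Over all 18976 genes tested, 31.6% had no overlap, 3040 with knockout lower and 2948 (15.5%) with knockout higher. Ppp1r15b and Asns both had no overlap between genotypes and did not pass. Chac1, another ATF4 target, encodes an enzyme that breaks down glutathione and had a difference of 0.34 (adjusted p = 0.17), opposite in sign to these.

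No gene of the other 6 lists passed. Of the UPR sensors and their processing enzymes 11 of 12 were tested, with a median difference of 0.017. Eif2ak3, which encodes PERK, had 0.146, 0.126 and 0.127 in knockout testes and 0.114, 0.115 and 0.118 in wild-type testes, a difference of 0.19 (adjusted p = 0.16). Ern2, an IRE1 gene, had -0.19 (adjusted p = 0.39).

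All 24 other ER chaperones and co-chaperones were tested, with a median of 0.013. The smallest p-values were those of Dnajb11, a BiP co-chaperone gene, with 6.43, 6.59 and 6.87 in knockout testes and 7.74, 7.30 and 7.50 in wild-type testes (difference -0.18, adjusted p = 0.089), and of the testis gene Calr3. Calr3 had 22.3, 23.6 and 23.2 in knockout testes and 26.8, 25.3 and 28.9 in wild-type testes (difference -0.23, adjusted p = 0.094). At an unadjusted p under 0.05 this list had 6 of 24 genes, near the 23.9% of all genes tested.

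Of 21 disulfide bond enzymes 19 were tested, with a median of -0.00024, and Tmx2 and Txndc12 had the smallest p-values, at differences of 0.13 and -0.13 (adjusted p of 0.12 and 0.18). A second Tmx2 probe had -0.039, opposite in sign. The 12 genes of the glycoprotein folding cycle had a median of 0.0031. Among these, the cargo lectin gene Lman2 had 0.18 and Mcfd2, which encodes a cargo receptor subunit, had -0.12 (adjusted p of 0.14 and 0.15). A second Mcfd2 probe had 0.0034. The 24 genes of ER-associated degradation had a median of -0.0051. Ubxn8 was at -0.25 and Faf2 at 0.17 (adjusted p of 0.063 and 0.13), and both encode membrane proteins that recruit the VCP segregase. The other Faf2 probes had 0.061 and 0.13 (adjusted p of 0.49 and 0.57). The 24 translocon and oligosaccharyl transferase genes had a median of 0.027. Sec61a2, a translocon channel gene, had 0.15 and Sec11c, of the signal peptidase, had -0.14 (adjusted p of 0.15 each).

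**Figure D4:**
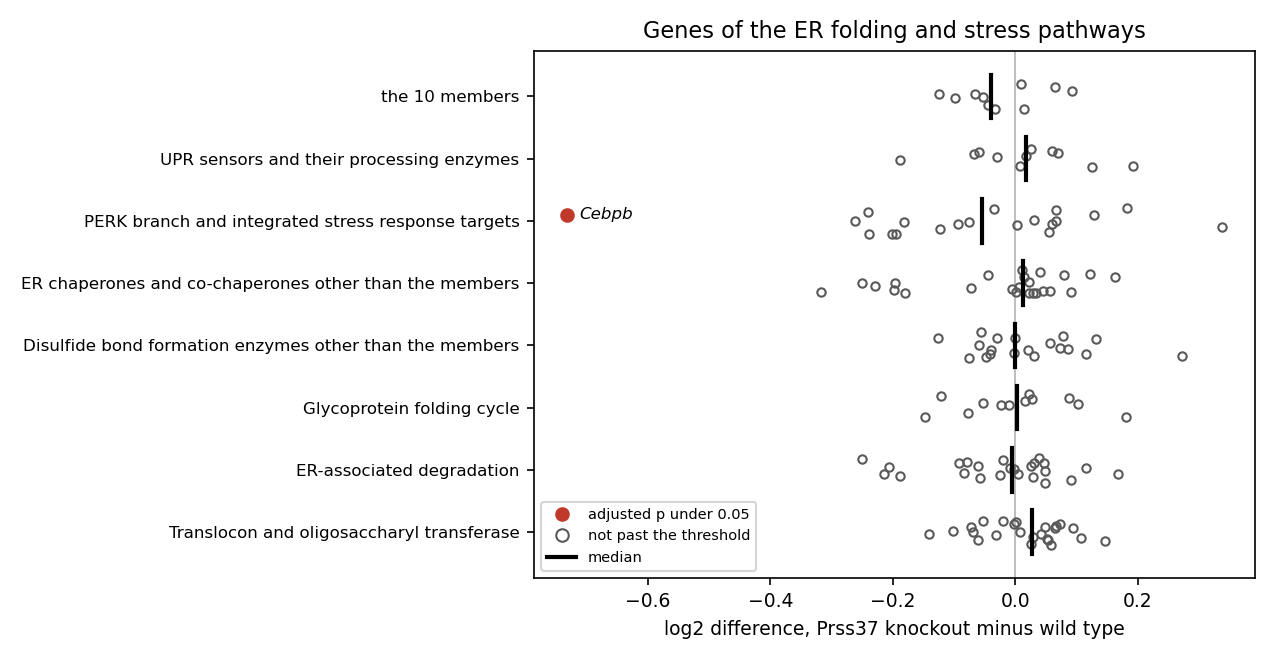
Log2 difference, knockout minus wild type, of each tested gene (points) in the 10 members and in each of the 7 pathway lists, with the list's median as a bar. Cebpb at -0.73 is the only point past an adjusted p of 0.05, and the medians lie between -0.055 and 0.027.

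Other genes with an ERSE match were set beside Hspa5, Hsp90b1, Canx and Pdia6, a choice made after the promoters had been searched. Of 18 such genes tested, 0 were called, where 2.46% of all genes tested were, and 6 had an unadjusted p under 0.05, where 23.9% of all genes did. Their median difference was 0.027, with 10 above 0 and 8 below 0.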

How the data were processed

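Each array's scanner file, written by Agilent Feature Extraction (version 10.7.3.1 per the file headers, 10.7 in the submitters' processing notes), was deposited with spot intensity values, and its processed signal is an intensity with background already removed, per the file headers. The submitters also deposited log2 values in a table whose columns each have a median of 7.73. It correlated at r above 0.999 with log2 processed signal on each array, and its normalization is not given in the sources used here.

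Control spots and spots with outlier flags were dropped. Log2 processed signal was set relative to the 75th percentile of its array (1550 to 1707, over all non-control spots), and spots that share a probe were averaged. Testing required a probe to be well above background on every array of at least 1 genotype (28306 probes), and the brightest probe stood for its gene (18976 genes). Probes were named through accessions and synonyms in a RefSeq table of GRCm38.p6, and their coordinates are mm9 as in the files. Genotypes were compared in limma 3.58.1 under R 4.3.3, using lmFit, eBayes and the Benjamini-Hochberg method over the 18976 genes, or over the 28306 probes where a probe is named. Simulated data were used to test these steps. The design text gives 3 mice of each genotype, so an array was taken as a mouse, and the number of arrays limits the precision.

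All 10 genes are named, and from each pathway list the called genes or, where none was called, the 2 with the smallest p. Ppp1r15b, Asns and Chac1 fall outside this rule. Genes, lists and tests were chosen with earlier results of these data known. Promoter sequences are from RefSeq.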

Additional observations from a re-analysis of the deposited data

How the results depend on the processing

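The count of called genes among the 10 was 0 under each of the 19 alternatives, which were normexp, scaling by quantiles or by the median, use of the deposited log2 values, no filter or a stricter one, inclusion of flagged spots, averaging over probes, a variance trend with robust fitting, a replicate or slide block, each array left out and other thresholds. Over the 17 of these that refit the values, the smallest adjusted p of any of the 10 genes was 0.17. Their median difference of -0.039 was 0.022 with normexp and lay between -0.049 and -0.025 with an array left out. Single genes near 0 changed sign: Hspa5 (0.0087) and Pdia4 (0.046) with normexp, Hsp90b1 with quantile normalization (-0.017), the deposited table (-0.019) and the mean of its probes (-0.052), and Dnajb9 with quantile normalization (-0.0017). With an array left out the ranges were -0.096 to 0.0054 for Hspa5, -0.0029 to 0.043 for Hsp90b1, -0.070 to 0.017 for Pdia4, -0.091 to 0.00045 for Atf4 and -0.039 to 0.090 for Dnajb9. Canx, Pdia6, Ddit3, Atf6 and Xbp1 kept their sign under all of these refits. The 467 genes called in all became 8 with no filter on dim probes, 275 after averaging over probes, 1270 with the variance trend, 2 with the replicate number as a block, 79 with the slide as a block, 1866 at adjusted p under 0.1 and 4532 at unadjusted p under 0.05, and 2 to 779 with an array left out. The cause was not tested. Cebpb also lost its call with the replicate number as a block (-0.73, adjusted p = 0.097). Same-numbered arrays correlated at -0.028, -0.027 and 0.16 in their deviations from the group means. The value of 0.16 was that of replicate 3, the arrays of slide 2, and was the highest of any knockout and wild-type pair. Knockout replicates 1 and 2 correlated best with wild-type replicates 2 and 1, at 0.14 and 0.11. Deviations of 3 arrays from their mean sum to 0, so these correlations cannot tell whether the replicate numbers pair the samples.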
